A study of Mus musculus with 25 samples.

Results

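Cell cycle and DNA replication genes were followed in the mouse duodenum, the first segment of the small intestine. The 40 genes were chosen by symbol, 16 that act in or before S phase, when DNA is copied, and 24 that act in mitosis, when the copies are separated. All 40 were found among 17007 genes of the deposited count table and all 40 passed the filter on low counts in every comparison. RNA was sequenced from male mice that were 8 weeks old at the start and stayed on their diet for 8 weeks. KI_Half (6 libraries) were Aldh2 knock-in mice (Aldh2KI) whose diet held 2.5% ethanol and which were gavaged 2 times each week with 2 g/kg. KI_Con (4 libraries) were Aldh2 knock-in mice on control diet. WT_Con (4 libraries) were C57BL/6N mice, here wild type (WT), on control diet. WT_Half (7 libraries) were wild-type mice on the same ethanol regimen as KI_Half, and WT_Full (4 libraries) were wild-type mice whose diet held 5% ethanol, with 4 g/kg at each of 2 weekly gavages. The final gavage is described as 5 g/kg, with tissue taken 9 h later, and whether this dose also applied to KI_Half and WT_Half is not stated. Acetaldehyde, which forms when ethanol is oxidised, is cleared in mitochondria by the product of Aldh2, and the labels do not describe the allele of the knock-in further. They also leave out whether control mice were gavaged and at what hour any mice were killed, so ethanol cannot be told apart from gavage or from time of day.

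In the small intestine, division is confined to the crypts, where stem cells and their rapidly dividing daughters copy their DNA before they move onto the villi and stop cycling. Origins of replication are licensed in G1 by Cdc6 and Cdt1, which load the Mcm helicase, and cyclin E with its kinase then starts S phase, while ribonucleotide reductase and thymidylate synthase supply nucleotides. E2F factors drive many of these S phase genes, and a later wave, in which the MuvB complex acts with B-Myb and FoxM1, drives the genes of mitosis through CHR elements in their promoters. In bulk tissue, a change in these transcripts can come from the number of dividing cells or from the RNA per dividing cell, and these cannot be told apart.

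Promoters of 7 of the genes, for which results are given below, are printed here as examples. The S phase and mitosis genes differ in the motifs they hold. Each line gives the 120 bases before the start of the gene, 5′ to 3′, from RefSeq on GRCm38.p6: Mcm3 at chr1:20820313-20820432 (minus strand), Mcm6 at chr1:128359706-128359825 (minus strand), Rrm2 at chr12:24708134-24708253 (plus strand), Cdk1 at chr10:69352913-69353032 (minus strand), Top2a at chr11:99024190-99024309 (minus strand), Cdc20 at chr4:118437344-118437463 (minus strand) and Ube2c at chr2:164769809-164769928 (plus strand). Capitals mark an E2F site (TTTCCCGC, TTTCGCGC, TTTGCCGC or TTTGGCGC), a CHR (TTTGAA or TTCGAA) or a CCAAT box (CCAAT), each searched on both strands.
Mcm3: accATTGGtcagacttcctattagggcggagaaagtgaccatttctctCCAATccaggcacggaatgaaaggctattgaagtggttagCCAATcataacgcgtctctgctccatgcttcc
Mcm6: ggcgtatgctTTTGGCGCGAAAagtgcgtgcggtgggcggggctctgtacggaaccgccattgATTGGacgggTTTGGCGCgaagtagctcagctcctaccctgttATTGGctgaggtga
Rrm2: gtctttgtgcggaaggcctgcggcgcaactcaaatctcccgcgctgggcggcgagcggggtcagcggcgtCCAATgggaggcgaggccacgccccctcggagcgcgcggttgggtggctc
Cdk1: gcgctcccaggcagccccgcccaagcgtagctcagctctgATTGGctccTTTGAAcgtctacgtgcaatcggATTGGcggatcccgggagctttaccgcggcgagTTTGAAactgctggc
Top2a: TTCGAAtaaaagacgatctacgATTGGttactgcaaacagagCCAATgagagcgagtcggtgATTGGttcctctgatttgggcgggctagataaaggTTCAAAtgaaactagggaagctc
Cdc20: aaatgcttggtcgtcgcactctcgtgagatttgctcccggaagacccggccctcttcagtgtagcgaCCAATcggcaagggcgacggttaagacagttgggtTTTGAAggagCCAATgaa
Ube2c: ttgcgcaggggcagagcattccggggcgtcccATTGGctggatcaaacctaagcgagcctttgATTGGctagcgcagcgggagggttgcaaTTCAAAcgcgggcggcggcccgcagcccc
In Mcm6, 2 of the E2F sites overlap each other. Mcm3 and Cdk1 held an E2F site in the searched 300 bases but outside the bases printed, and Rrm2 held neither an E2F site nor a CHR. Each mitosis promoter printed held a CHR within its 120 bases, which is not so of all mitosis promoters. Those of Plk1 and Aurka held a CHR only outside these bases, and those of Ccnb1 and Birc5 held none in the searched 300 bases. The RefSeq table held a promoter for 33 of the 40 genes. Over the full 300 bases, from 250 before to 50 after the start, an E2F site was found in 6 of 13 S phase promoters, 1 of 20 mitosis promoters and 2.32% of 27025 genes in the table. A CHR was found in 2 of 13 S phase promoters, 16 of 20 mitosis promoters and 19.4% of all genes. A CCAAT box was found in 8 of 13 S phase promoters, 18 of 20 mitosis promoters and 37.9% of all genes. All 16 mitosis promoters with a CHR also held a CCAAT box, and 7.7% of all genes held both. These are matches of letters, not measured binding sites.

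Libraries held 24.6 M to 44.8 M counts (median 32.02 M), and levels are given as CPM, counts per M counts of the library, after TMM scaling. The labels number the libraries of a group but do not say that each came from a separate animal, so p-values measure the spread between libraries, which may be technical. Markers of the tissue were present in every library: the duodenal factor Pdx1 ranged from 88.4 to 229.1 CPM and the brush border protein villin (Vil1) from 1475 to 2938 CPM. The pancreatic chymotrypsinogen transcript Ctrb1 exceeded 10 CPM in 3 of 4 WT_Con and 2 of 4 KI_Con libraries and in no ethanol library. Per kilobase of exon, the median over 25 libraries was highest for Pcna (56.0 CPM per kb), the sliding clamp of the replication fork, then for Rrm2 (25.8 CPM per kb) and Plk1 (21.3 CPM per kb). It was lowest for the kinetochore protein Cenpf, at 0.637 CPM per kb. Across libraries the spread was widest for Rrm2, whose highest library stood 23.9-fold over its lowest, against a median of 4.30-fold among S phase genes and 5.66-fold among mitosis genes.

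**Figure D1:**
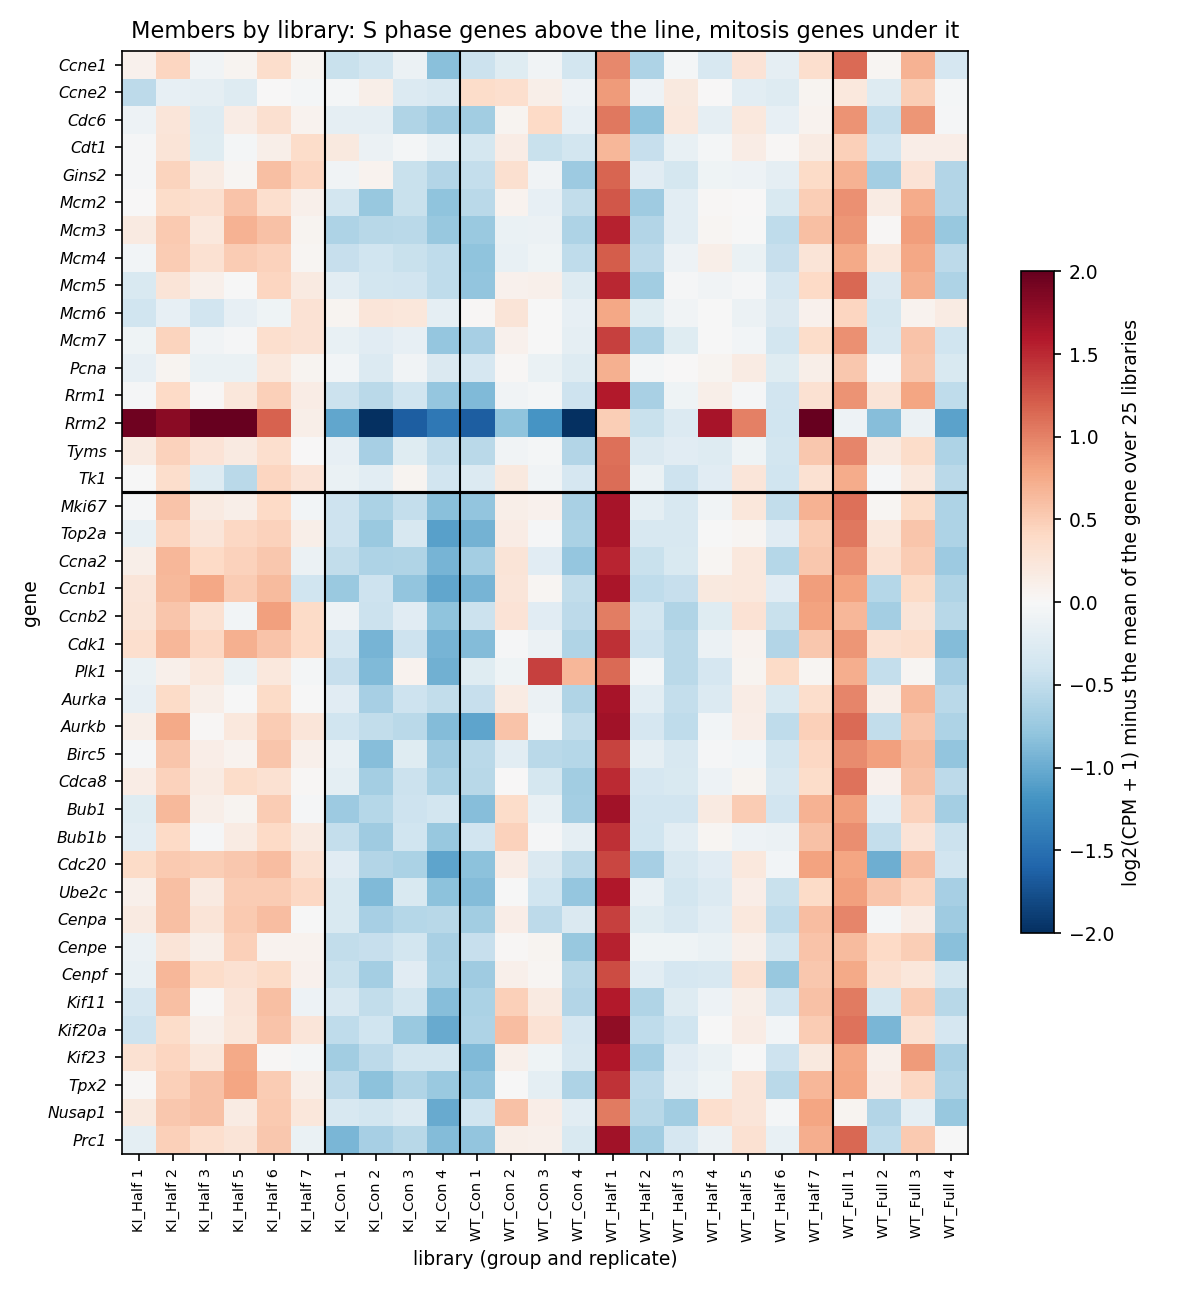
Each square is log2(CPM + 1) of a gene in a library, minus the mean of that gene over 25 libraries, with groups in the order KI_Half, KI_Con, WT_Con, WT_Half, WT_Full and S phase genes above the line. WT_Half replicate 1 is the highest library for 14 of 16 S phase and 23 of 24 mitosis genes, while Rrm2 is highest in KI_Half replicate 5.

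Of the 7 comparisons made, edgeR with all libraries of the compared groups called any of the 40 genes in just 1, that of Aldh2 knock-in mice given ethanol. In KI_Half against KI_Con, all 24 mitosis genes rose, and 11 of 16 S phase genes rose while none fell, by edgeR's quasi-likelihood test with Benjamini-Hochberg adjusted p under 0.05. Of all 16944 genes tested, 37.9% were called, with 20.0% higher and 17.9% lower. The median log2 fold change was 0.90 for mitosis genes and 0.61 for S phase genes, against 0.00 over all genes tested. Every KI_Half library stood above every KI_Con library for 21 of 24 mitosis genes and 8 of 16 S phase genes, against 13.5% of all genes. A fit of all 25 libraries together, in which the groups share 1 estimate of the spread, called fewer members. It called 10 of 24 mitosis and 4 of 16 S phase genes, all of them higher, with medians of 0.89 and 0.60. In either direction it called 32% of all 17007 genes, with 2737 higher and 2702 lower. The S phase share was below this 32%, which counts both directions. With the KI_Con libraries above 10 CPM of Ctrb1 left out, 18 mitosis and 8 S phase genes rose, and 2565 genes (15.1%) were called in place of 6420.

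Among licensing factors, 6 of 8 rose and the Mcm helicase subunits did not move alike. Mcm3 ranged from 33.1 to 51.8 CPM in KI_Half (median 41.3) and had 20.4, 21.3, 21.4 and 18.3 CPM in KI_Con, with no overlap. Its log2 fold change was 1.05 ± 0.14 (SE, adjusted p = 0.000539, edgeR). Mcm2 ranged from 32.7 to 48.7 CPM in KI_Half (median 41.0) and had 24.96, 18.8, 23.6 and 18.2 CPM in KI_Con, again with no overlap and a log2 fold change of 0.91 ± 0.14. Mcm5 ranged from 21.7 to 36.8 CPM in KI_Half (median 29.98) and had 23.3, 20.9, 20.5 and 18.7 CPM in KI_Con. Its groups overlapped through KI_Half replicate 1 and its log2 fold change was 0.52 ± 0.14. Mcm4 (0.81), Mcm7 (0.49) and the loader Cdc6 (0.56) rose as well, by these log2 fold changes. Mcm6, a subunit of the same helicase, had 41.2 to 66.9 CPM in KI_Half (median 48.8) and 57.2, 64.6, 64.1 and 48.4 CPM in KI_Con. These groups overlapped, and the log2 fold change of Mcm6 was -0.22 ± 0.15 (adjusted p = 0.256, edgeR). The loader Cdt1 had 20.9 to 32.6 CPM in KI_Half (median 25.99) and 28.7, 23.0, 24.2 and 22.4 CPM in KI_Con, with a log2 fold change of 0.13 ± 0.14 (adjusted p = 0.475, edgeR).

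Genes of cyclin E and of the replication fork did not move alike either. Ccne1, a cyclin that opens S phase with Cdk2, ranged from 6.05 to 9.02 CPM in KI_Half (median 6.80) and had 4.46, 4.73, 5.80 and 3.16 CPM in KI_Con, a log2 fold change of 0.69 ± 0.19 (adjusted p = 0.0160, edgeR). Its paralog Ccne2 had a log2 fold change of -0.07 ± 0.19 and did not pass the test. Pcna had 122.7 to 160.9 CPM in KI_Half (median 135.2) and 133.5, 114.2, 131.5 and 113.1 CPM in KI_Con, overlapping, with a log2 fold change of 0.17 ± 0.10 (adjusted p = 0.223, edgeR). Gins2, a subunit of the active helicase, rose by 0.65 ± 0.22 on the log2 scale (adjusted p = 0.0359, edgeR), with overlapping libraries.

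Nucleotide supply held the gene with the greatest change of the 40. Rrm2 encodes the small subunit of ribonucleotide reductase, is made in S phase and limits the activity of the enzyme, and lies at chr12:24708241-24714146 of GRCm38 on the plus strand in the GENCODE annotation, whose start is a few bases upstream of the RefSeq start used for the promoter. It had 336.9, 305.3, 361.4, 498.7, 196.9 and 93.5 CPM in KI_Half and 41.7, 21.0, 27.0 and 31.6 CPM in KI_Con. No library overlapped, and the lowest KI_Half library was replicate 7. The log2 fold change was 3.31 ± 0.42, or 9.89-fold (adjusted p = 0.000479, edgeR), and ran from 3.11 to 3.50 when each library was left out. The next S phase gene, Mcm3, changed 2.08-fold. Rrm1, the large subunit of the same enzyme, ranged from 35.8 to 50.8 CPM in KI_Half (median 41.6) and had 26.8, 24.7, 27.3 and 20.8 CPM in KI_Con, a log2 fold change of 0.78 ± 0.13. The ratio of Rrm2 to Rrm1 counts was 7.24 ± 3.67 in KI_Half (SD, n = 6) and 1.23 ± 0.36 in KI_Con (SD, n = 4). How the counting treated reads that match processed copies of a gene elsewhere in the genome is not stated. Thymidylate synthase, Tyms, rose by 0.66 ± 0.14 on the log2 scale, and the salvage kinase Tk1 had a log2 fold change of 0.26 ± 0.19 (adjusted p = 0.306, edgeR).

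**Figure D2:**
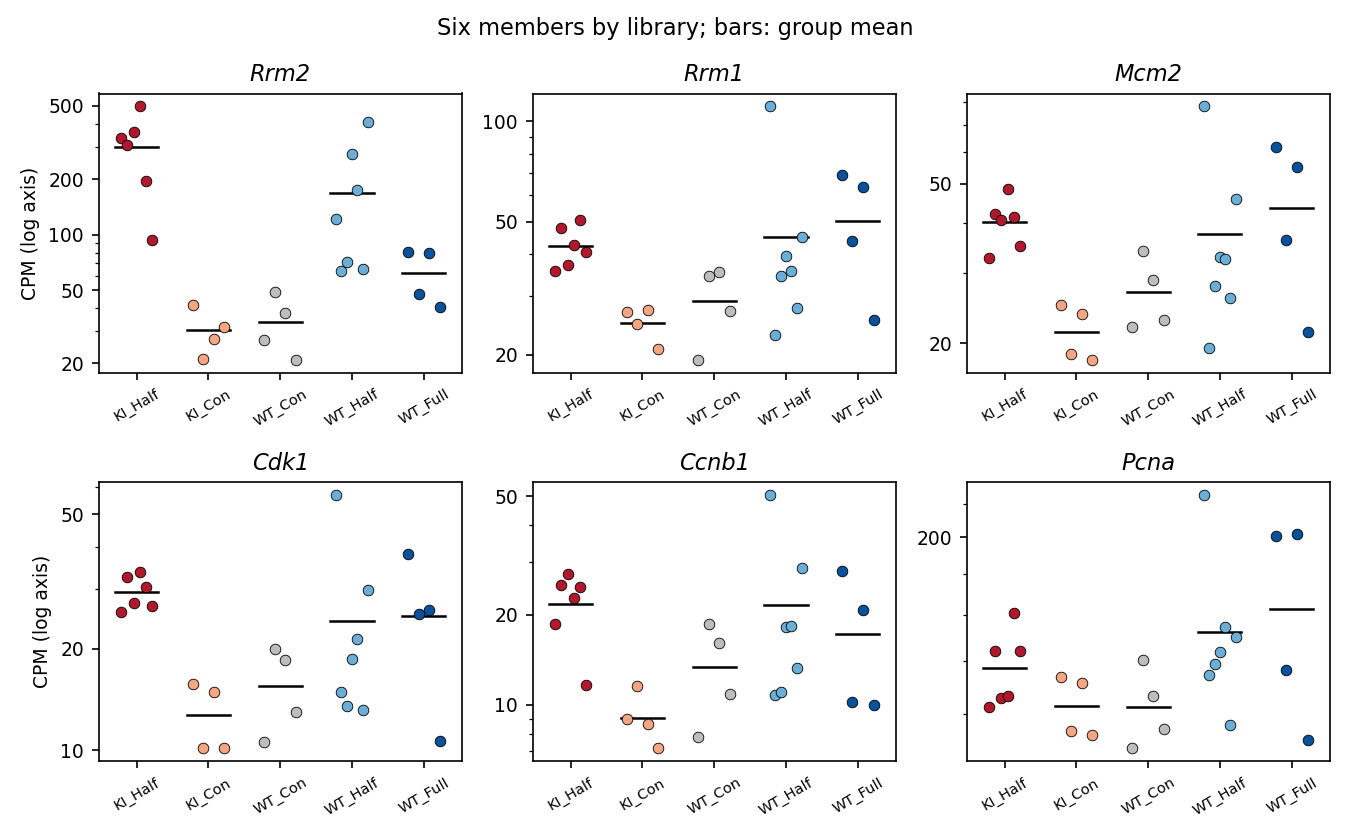
CPM on a log axis by library for Rrm2, Rrm1, Mcm2, Cdk1, Ccnb1 and Pcna, with a bar at the mean of each group in the order KI_Half, KI_Con, WT_Con, WT_Half, WT_Full. Rrm2 averaged 298.8 CPM in KI_Half and 30.3 CPM in KI_Con, whereas Pcna averaged 137.3 CPM in KI_Half and 123.1 CPM in KI_Con and overlapped.

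Mitosis genes in the knock-in moved over a narrow range, with folds between 1.48 and 2.41, and 7 of 24 reached 2-fold. Grouped by role, the cyclins that enter mitosis and their kinase had the highest median log2 fold change, 1.15 over Ccna2, Ccnb1, Ccnb2 and Cdk1. Of these, Ccnb2 rose by 0.81, less than the median of 0.90 over the 24 mitosis genes. Cdk1 ranged from 25.6 to 33.7 CPM in KI_Half (median 28.9) and had 15.7, 10.1, 14.9 and 10.2 CPM in KI_Con, with no overlap and a log2 fold change of 1.22 ± 0.16 (adjusted p = 0.000532, edgeR). Ccnb1, cyclin B1, ranged from 11.7 to 27.4 CPM in KI_Half (median 23.8) and had 8.96, 11.6, 8.61 and 7.15 CPM in KI_Con. Its lowest KI_Half library, replicate 7, stood just above the highest KI_Con library, and its log2 fold change was 1.27 ± 0.23. Ccna2, cyclin A2, rose by 1.07 ± 0.16 on the log2 scale.

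Genes of the spindle, its checkpoint and its exit rose with them. Tpx2, which nucleates spindle microtubules and activates Aurora A, ranged from 19.7 to 33.9 CPM in KI_Half (median 27.5) and had 13.0, 10.4, 12.3 and 11.1 CPM in KI_Con, a log2 fold change of 1.18 ± 0.16 (adjusted p = 0.000596, edgeR). Cdc20, the activator of the anaphase promoting complex, ranged from 40.4 to 50.03 CPM in KI_Half (median 46.5) and had 27.6, 21.4, 20.6 and 15.01 CPM in KI_Con, a log2 fold change of 1.12 ± 0.15. Neither gene overlapped between the groups. The microtubule bundler Prc1 (1.14), the kinesins Kif20a (1.05), Kif23 (0.85) and Kif11 (0.76), and the spindle protein Nusap1 (0.92) rose too. So did Ube2c (0.98), the ubiquitin carrier of that complex, and the checkpoint genes Bub1 (0.89) and Bub1b (0.81).

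Proliferation markers, centromere proteins and mitotic kinases completed the group. Mki67, the Ki-67 antigen of cycling cells, ranged from 66.7 to 103.4 CPM in KI_Half (median 77.2) and had 52.1, 44.5, 49.6 and 38.6 CPM in KI_Con, a log2 fold change of 0.81 ± 0.14 (adjusted p = 0.00169, edgeR). Top2a, which untangles sister chromatids, ranged from 62.0 to 94.7 CPM in KI_Half (median 87.1) and had 51.3, 40.9, 55.1 and 31.9 CPM in KI_Con, a log2 fold change of 0.90 ± 0.17. Both were higher in every KI_Half library than in any KI_Con library. Aurkb, the kinase of the chromosomal passenger complex, ranged from 15.9 to 27.2 CPM in KI_Half (median 18.4) and had 11.6, 10.8, 10.5 and 8.10 CPM in KI_Con, a log2 fold change of 0.97 ± 0.17. Cenpf ranged from 8.56 to 15.8 CPM in KI_Half (median 12.4) and had 6.81, 5.62, 8.01 and 5.81 CPM in KI_Con, a log2 fold change of 0.88 ± 0.18. Neither overlapped between the groups. The passenger proteins Cdca8 (0.77) and Birc5 (0.74), the kinase Aurka (0.62) and the centromere genes Cenpa (0.95) and Cenpe (0.73) rose too. Plk1, a kinase of mitotic entry, had the smallest rise, with 43.9 to 56.0 CPM in KI_Half (median 49.2) and 34.6, 25.6, 50.5 and 24.2 CPM in KI_Con, which overlapped. Its log2 fold change was 0.56 ± 0.20 (adjusted p = 0.0406, edgeR). The call was lost without KI_Con replicate 1, 2 or 4 and without KI_Half replicate 2, 3 or 6, with edgeR adjusted p up to 0.120.

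Genes of the same pathways outside the 40 were counted from lists drawn up by function, and the examples named were picked after their values were seen. Of 40 other replication genes, 18 rose and 1 fell in KI_Half against KI_Con, where 20.0% of all genes tested rose and 17.9% fell. The median log2 fold change of these replication genes was 0.46. The risers included Dbf4 (1.17) and Cdc7 (0.74), the kinase pair that fires origins, and the origin recognition subunits Orc1 (1.16), Orc2 (1.01) and Orc6 (0.81). Of 40 other mitosis genes, 32 rose and none fell, with a median of 0.79 and among them Sgo1 (1.48), Dlgap5 (1.37), Mad2l1 (1.18) and Racgap1 (0.97).

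Regulators of G1 and S phase moved in both directions. Of 26 such genes, 15 rose and 2 fell, against 20.0% and 17.9% of all genes tested. E2f3 rose in KI_Half to 20.4 ± 1.44 CPM (SD, n = 6), against 9.91 ± 1.25 CPM in KI_Con (SD, n = 4), a log2 fold change of 1.05. E2f2 (1.21), the E2F partner Tfdp1 (0.79), Myc (1.51), Mybl2 (1.33), Foxm1 (0.88) and cyclin D1 (Ccnd1, 0.53) rose, while E2f1 had a log2 fold change of 0.36 and did not pass the test. The 2 that fell were the pocket protein genes Rb1 (-0.90) and Rbl2 (-0.94), whose products hold E2F in check. Among 18 Cdk inhibitor and arrest genes, 4 rose and 4 fell, near the shares of all genes, with a median of 0.10. Cdkn1a, which encodes the inhibitor p21, ranged from 297.0 to 562.5 CPM in KI_Half (median 377.7) and had 243.6, 185.4, 193.2 and 270.9 CPM in KI_Con, with no overlap and a log2 fold change of 0.81. Cdkn1c, which encodes p57, had a log2 fold change of -1.12 and cyclin G2 (Ccng2) -0.99.

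Cell type markers were counted in the same comparison, in which 20.0% of all genes tested rose and 17.9% fell. Of 10 enterocyte markers, which mark the non-dividing absorptive cells of the villus, 6 fell and none rose, and their summed level ran from 15493 to 34018 CPM in KI_Half and from 31775 to 47130 CPM in KI_Con. The largest fall was that of lactase, Lct, at -2.15 on the log2 scale. All 8 T and NK cell markers fell, with sums of 28.7 to 149.4 CPM in KI_Half and 207.6 to 265.1 CPM in KI_Con, and none of them was at 0 in any library. Of 8 crypt stem cell markers, Olfm4 (0.88) and Cd44 (1.03) rose and Lgr5 (-0.98) and Rnf43 (-0.58) fell, with sums of 391.8 to 518.6 CPM in KI_Half and 262.3 to 422.7 CPM in KI_Con. Of 8 general epithelial markers 4 rose and 1 fell, with sums of 10610 to 16231 CPM in KI_Half and 8735 to 10757 CPM in KI_Con. All 8 acinar markers fell, with sums of 13.6 to 23.4 CPM in KI_Half and 19.0 to 4852 CPM in KI_Con. Of the remaining lists, 2 of 8 Paneth cell markers rose, 1 of 5 goblet cell markers rose and 3 fell, 2 of 3 B cell markers fell, 2 of 4 plasma cell markers rose and 2 fell, 2 of 6 neutrophil and macrophage markers rose and 3 fell, and none of 3 Brunner gland, 6 smooth muscle and 5 erythroid markers passed the test. The part of these cell types in the changes of the cell cycle genes was not tested.

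**Figure D3:**
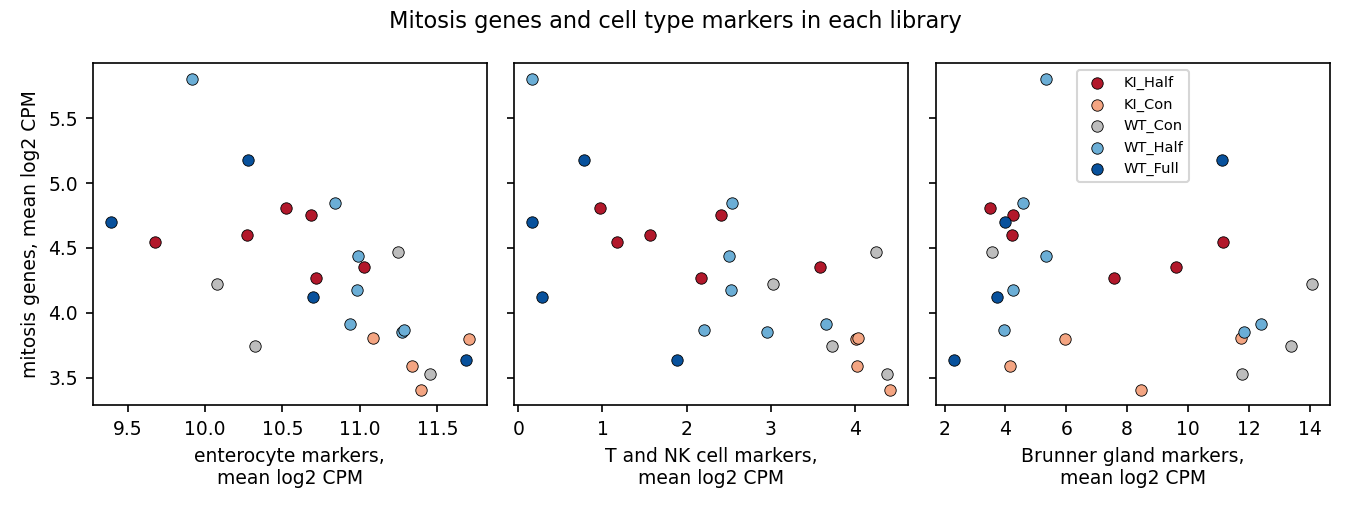
Each point is a library, with the mean log2 CPM of the 24 mitosis genes on the vertical axis and that of enterocyte, T and NK cell, or Brunner gland markers on the horizontal axis. WT_Half replicate 1, with the highest mitosis mean at 5.81, had T and NK cell markers at 0.16. The KI_Con libraries, at 3.41 to 3.804, had them at 4.02 to 4.43. Other libraries departed from this order. WT_Full libraries had these markers at 0.16 to 1.88, and the mitosis mean of WT_Full replicate 4 was 3.63. WT_Con libraries had them at 3.03 to 4.39, and the mitosis mean of WT_Con replicate 2 was 4.47.

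In wild-type mice, the same regimen came with a wide spread between libraries. In WT_Half against WT_Con, none of the 40 genes passed edgeR's test fitted on these groups with all their libraries, in which 1.47% of 16993 genes were called. Rrm2 and Birc5 had an unadjusted p under 0.05, as did 21.8% of all genes. DESeq2 called 1 member, Rrm2, and 7.96% of all genes. Log2 fold changes were above 0 for 15 of 16 S phase genes (median 0.47) and 23 of 24 mitosis genes (median 0.65). Mean levels of the 16 S phase genes ran from 4.04 to 5.66 log2 CPM in WT_Half and from 3.94 to 4.54 in WT_Con, and those of the 24 mitosis genes from 3.86 to 5.81 in WT_Half and from 3.52 to 4.47 in WT_Con. The top of each WT_Half range is replicate 1. Without it the medians were 0.19 for S phase and 0.27 for mitosis genes, and without the 3 WT_Con libraries above 10 CPM of Ctrb1 they were 0.13 and 0.16. In replicate 1, Mki67 stood at 218.6 CPM, against 49.0 to 112.9 CPM in the other WT_Half libraries, while its summed T and NK cell markers were 10.9 CPM, the lowest of the group, whose sums reached 150.8 CPM. Their part in its mitosis gene levels was not tested.

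**Figure D4:**
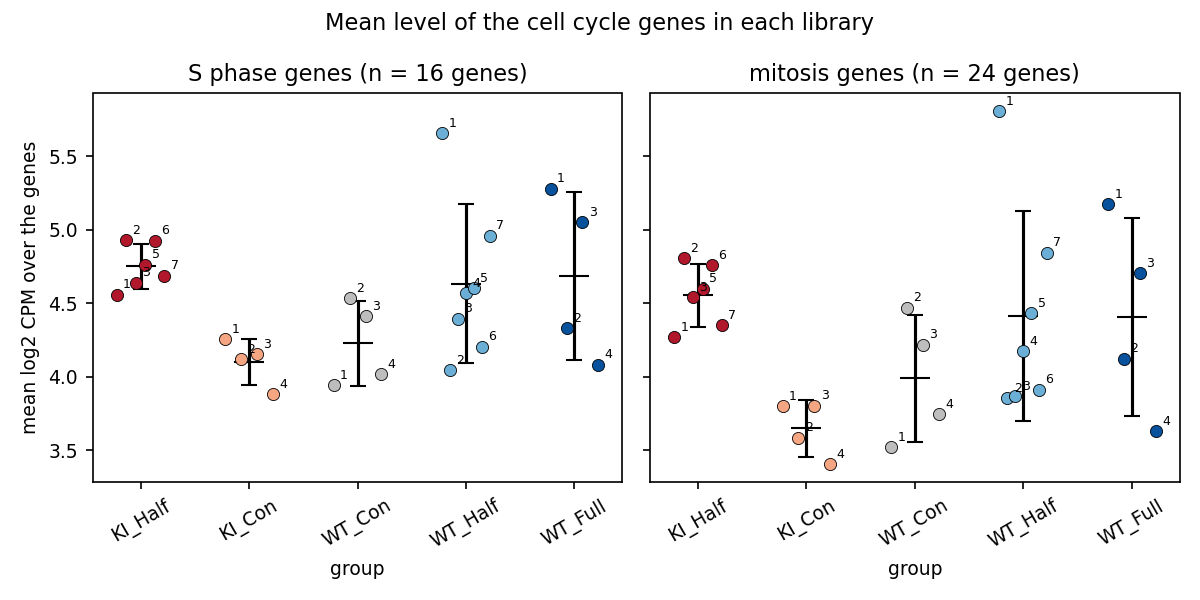
Mean log2 CPM of the 16 S phase genes (left) and 24 mitosis genes (right) in each library, numbered by replicate, with the group mean and SD. The KI_Half libraries lie above the KI_Con libraries in both panels, whereas WT_Half spans 4.04 to 5.66 for S phase and 3.86 to 5.81 for mitosis genes and overlaps WT_Con.

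Rrm2 again stood apart in wild type. It had 63.1 to 408.4 CPM in WT_Half (median 122.4) and 26.9, 49.1, 37.7 and 20.9 CPM in WT_Con. Every WT_Half library was above every WT_Con library, as held for 3.10% of all genes and for no other member. The log2 fold change was 2.34 ± 0.56, or 5.05-fold, with an adjusted p of 0.0597 by edgeR, 0.0118 by edgeR in the fit of all 25 libraries and 0.00251 by DESeq2. Leaving out each library gave adjusted p-values from 0.0402 to 0.154, under 0.05 without WT_Half replicate 2 or 6. A term for Brunner gland markers, whose mean differed from 3.94 to 12.4 log2 CPM among WT_Half libraries, lowered the log2 fold change to 1.58 (adjusted p = 0.303, edgeR). With a replicate block, on the libraries whose numbers both groups share, it was 1.77 (adjusted p = 0.482, edgeR). Without the WT_Con libraries above 10 CPM of Ctrb1 it was 1.77 as well. The library with the highest mitosis genes was not the one with the highest Rrm2: replicate 1 had 122.4 CPM, while replicates 7, 4 and 5 had 408.4, 273.8 and 174.3 CPM. The ratio of Rrm2 to Rrm1 counts ran from 1.10 to 9.08 in WT_Half (median 2.76) and from 0.774 to 1.42 in WT_Con. Cdkn1a had 408.1, 396.7 and 294.1 CPM in the same 3 WT_Half libraries, 301.1 CPM in replicate 3 and 116.7 CPM in replicate 1. Outside the 40 genes, E2f3 rose (0.87, adjusted p = 0.0466) and Cdkn1c fell (-0.88, adjusted p = 0.0435) by edgeR.

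At the higher ethanol regimen no member passed the test on the compared groups. In WT_Full against WT_Con, edgeR called 0.00592% of 16882 genes and none of the 40. Of the 40, 6 S phase and 3 mitosis genes had an unadjusted p under 0.05, as did 17.8% of all genes. DESeq2 on the same 2 groups called 5.5% of all genes and also none of the 40. The median log2 fold change was 0.59 for S phase and 0.59 for mitosis genes. Birc5, survivin, had 60.3, 55.2, 48.1 and 17.3 CPM in WT_Full and 20.9, 26.4, 20.8 and 20.5 CPM in WT_Con. Its first 3 WT_Full libraries were above all WT_Con libraries and replicate 4 was below them, giving a log2 fold change of 1.04 ± 0.34 (adjusted p = 0.193, edgeR). In the authors' deposited table, Birc5 alone of the 40 genes had an adjusted p under 0.05 for this comparison (0.0325), and 11.5% of all genes in the authors' deposited table had one. Without WT_Full replicate 4, edgeR called 2069 genes (12.2% of all tested), among which 6 S phase and 5 mitosis members rose. Without WT_Full replicate 1 it called 0 genes, and the medians were 0.29 for S phase and 0.24 for mitosis genes. Without the 3 WT_Con libraries above 10 CPM of Ctrb1, the medians were 0.35 and 0.17. All 8 T and NK cell markers had lower levels in WT_Full, at sums of 11.7 to 50.04 CPM, against 99.1 to 268.7 CPM in WT_Con, and their part was not tested.

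Across the wild-type groups, the mean of Rrm2 was highest at the lower ethanol dose. It averaged 33.6 ± 12.4 CPM in WT_Con (SD, n = 4), 168.3 ± 130.4 CPM in WT_Half (SD, n = 7) and 61.9 ± 21.0 CPM in WT_Full (SD, n = 4). The ratio of Rrm2 to Rrm1 counts was 1.16 ± 0.31 in WT_Con, 4.17 ± 2.92 in WT_Half and 1.27 ± 0.22 in WT_Full. In WT_Full against WT_Half the log2 fold change of Rrm2 was -1.43 ± 0.54 (unadjusted p = 0.0200, adjusted p = 1.00, edgeR), where none of 16967 genes was called and 4.60% had an unadjusted p under 0.05. DESeq2 called 20 genes there and no member. Libraries of Rrm1 and Top2a overlapped between the groups. Rrm1 averaged 29.1 CPM in WT_Con, 45.2 CPM in WT_Half and 50.4 CPM in WT_Full, and Top2a averaged 55.7 CPM in WT_Con, 88.6 CPM in WT_Half and 92.7 CPM in WT_Full. Without WT_Full replicate 1, the WT_Full means were 44.2 CPM for Rrm1 and 75.6 CPM for Top2a, below the WT_Half means over all libraries. Without WT_Half replicate 1, the WT_Half means were lower still, at 34.2 CPM for Rrm1 and 67.6 CPM for Top2a. The order of these means thus depended on which libraries were kept. Median log2 fold changes of WT_Full against WT_Half were 0.12 for S phase and -0.01 for mitosis genes. They were 0.43 and 0.35 without WT_Half replicate 1, 0.33 and 0.19 without WT_Full replicate 4, and -0.10 and -0.40 without WT_Full replicate 1.

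The genotype was compared at the lower ethanol dose and on control diet. In KI_Half against WT_Half, edgeR called none of 16907 genes, 14.2% of which had an unadjusted p under 0.05, with none of the 40 among them, and DESeq2 called 172 genes but no member. In the authors' deposited table, 1.24% of genes had an adjusted p under 0.05, again with no member. Median log2 fold changes were -0.01 for S phase and 0.01 for mitosis genes, and 0.27 and 0.33 without WT_Half replicate 1. Rrm2 had the largest difference of the 40, 0.83 ± 0.46 (adjusted p = 0.422, edgeR), with 93.5 to 498.7 CPM in KI_Half (median 321.1) and 63.1 to 408.4 CPM in WT_Half (median 122.4), which overlapped. The median coefficient of variation among mitosis genes was 18.3% in KI_Half and 64.4% in WT_Half, and 32.2% in WT_Half without replicate 1.

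On control diet the knock-in means lay under those of wild type for most members, without passing the test. In KI_Con against WT_Con, edgeR called none of 16813 genes, of which 9.90% had an unadjusted p under 0.05, and DESeq2 called 8 genes, none of them a member. Log2 fold changes were below 0 for all 24 mitosis genes (median -0.33) and for 14 of 16 S phase genes (median -0.16), with 5 mitosis genes at an unadjusted p under 0.05. With the Ctrb1-rich libraries left out of both groups, and so only WT_Con replicate 2 in the wild-type group, the medians were -0.78 for mitosis and -0.51 for S phase genes. Without WT_Con replicate 2 itself they were -0.14 and -0.05. Over all fits that left out 1 library, they ran from -0.47 to -0.14 for mitosis and from -0.25 to -0.05 for S phase genes. Bub1b, a spindle checkpoint gene, had 10.9, 9.13, 11.5 and 8.85 CPM in KI_Con and 11.6, 21.7, 15.3 and 13.7 CPM in WT_Con. It was the 1 member without overlap, with a log2 fold change of -0.64 ± 0.20 (adjusted p = 0.502, edgeR), and 1.61% of all genes had every KI_Con library below every WT_Con library. Plk1 had 34.6, 25.6, 50.5 and 24.2 CPM in KI_Con and 40.2, 45.4, 125.6 and 76.8 CPM in WT_Con, a log2 fold change of -1.10 ± 0.38. The 2 WT_Con libraries with the highest Plk1, replicates 3 and 4, also had the highest Brunner gland marker means of the 25 libraries, at 14.1 and 13.4 log2 CPM. With a term for these markers the log2 fold change of Plk1 was -0.74, without WT_Con replicate 3 it was -0.69, and without the Ctrb1-rich libraries it was -0.27.

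The test of whether ethanol acted differently in the knock-in found no member past the threshold. In the interaction, KI_Half against KI_Con minus WT_Half against WT_Con, edgeR called none of 17006 genes, 12.7% of which had an unadjusted p under 0.05, and DESeq2 called 31 genes and no member. The log2 fold change was larger in the knock-in for all 24 mitosis genes, by a median of 0.38, and for 12 of 16 S phase genes, by a median of 0.15. Plk1 had the largest mitosis difference (0.95 ± 0.44, unadjusted p = 0.0415, adjusted p = 0.381 by edgeR) and Rrm2 the largest S phase difference (0.98 ± 0.68, adjusted p = 0.529 by edgeR). The interaction takes in the same KI_Con and WT_Con libraries that were compared on control diet, where the mitosis median was -0.33. In KI_Half against WT_Half the mitosis median was 0.01, so with all libraries the levels under ethanol were not higher in the knock-in by this median. That rested on WT_Half replicate 1, without which the median was 0.33. Leaving out each library moved the mitosis median from 0.17, without WT_Con replicate 2, to 0.75, without WT_Half replicate 1.

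The balance between the phases was described within each library as the mean log2 CPM of mitosis genes minus that of S phase genes. The S phase mean takes in Rrm2, whose log2 fold change far exceeded the S phase median. It was 3.31 against 0.61 in KI_Half against KI_Con, and 2.34 against 0.47 in WT_Half against WT_Con. By its definition, a rise of Rrm2 lowers the balance. A balance without Rrm2 was not computed. The balance of all members is given here by group. This balance was -0.20 ± 0.10 in KI_Half (SD, n = 6) and -0.45 ± 0.08 in KI_Con (SD, n = 4). It ran from -0.34 to -0.10 in KI_Half and from -0.53 to -0.35 in KI_Con, without overlap. It was -0.24 ± 0.15 in WT_Con, -0.22 ± 0.22 in WT_Half and -0.28 ± 0.15 in WT_Full. All 3 wild-type groups overlapped each other.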

How the data were processed

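PolyA RNA of 25 mouse duodenum libraries was sequenced. Per the submitters' processing notes, FastQC, Trimmomatic, HISAT2, SAMtools, featureCounts and DESeq2 were used with the GRCm38 build; versions, strand setting and treatment of reads that match several places are not stated. The authors deposited whole-number counts per gene, unnormalised. The authors also deposited a log2 fold change for 2 comparisons, and an adjusted p-value beside each, which are quoted only as the authors' deposited table.

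Of 17220 lines, 213 repeated an identifier and were dropped, leaving 17007 genes. For each comparison, genes were filtered by filterByExpr (minimum count 10), scaled by TMM and tested with the quasi-likelihood test of edgeR 4.0.16 in R 4.3.3, on its own groups alone, with Benjamini-Hochberg adjustment over all genes and a threshold of 0.05. The interaction used the 4 groups of both genotypes at control and lower ethanol diets. Alternatives were DESeq2 1.42.0, RLE size factors, no filter, 1 fit of all libraries, a replicate block, a Brunner gland marker term and leaving out each library. The edgeR step was first tested on simulated data. Same-numbered libraries deviated together in only 5 of 25 pairs (r over 0.1, range -0.29 to 0.39), so numbers were not taken as pairs. These pairs were not spread evenly. In KI_Con against WT_Con, r was 0.13, 0.21 and 0.25 for replicates 1, 2 and 3 and -0.02 for replicate 4. A pairing of control libraries is thus not excluded. With a replicate block the medians there were -0.14 for S phase and -0.29 for mitosis genes. No libraries had identical counts (highest r = 0.980).

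Genes and lists were chosen with earlier results of these data known. Values by library are given for a panel chosen by role and for the members with the smallest p in each phase; other examples, Mcm6 among them, were picked after their values were seen. Intervals are SD over libraries or SE of the fit. Levels between genes are per kilobase of exon in the GENCODE annotation of GRCm38. Promoters are from RefSeq on GRCm38.p6. The values of 1 gene of the replication list are not reported here.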

Additional observations from a re-analysis of the deposited data

Results flagged for a closer look

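Dixon's 95% limit was applied to 115 sets of values. Each set was the CPM of 1 of 21 genes, or a mean log2 level of S phase or mitosis genes, in 1 group. In 15 sets, the gap of a library to its nearest neighbour passed the limit. Chance flags about 5% of independent sets, but these sets share libraries and are not independent, so that share cannot be held against them. All 15 flagged sets held the CPM of a single gene, and none of them was a mean level. WT_Half replicate 1 was the high library in 12 of them, with CPM of 93.5 for Mcm3, 78.9 for Mcm5, 226.2 for Pcna, 111.0 for Rrm1, 218.6 for Mki67, 214.9 for Top2a, 73.8 for Ccna2, 57.1 for Cdk1, 106.2 for Plk1, 52.4 for Aurkb, 79.7 for Birc5 and 44.4 for Bub1b. WT_Con replicate 2 was the high library for Cdt1, at 27.7 CPM, and for Birc5, at 26.4 CPM. KI_Con replicate 4 was the low library for Nusap1, at 5.65 CPM.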

How the results depend on the processing

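Leaving out the control libraries above 10 CPM of Ctrb1 was chosen after seeing the data, and where it leaves 1 WT_Con library, that library is assumed to vary like the others. The means and spread without replicate 1 of WT_Half or WT_Full were also chosen after seeing the data. The cause of the shifts below was not tested. DESeq2 called 936 genes in WT_Full against WT_Con, 1353 in WT_Half against WT_Con (1 S phase member), 172 in KI_Half against WT_Half, 8 in KI_Con against WT_Con, 20 in WT_Full against WT_Half and 31 in the interaction. The fit of all 25 libraries called 1289 genes in WT_Full against WT_Con, 720 in WT_Half against WT_Con (1 S phase member), 2 in KI_Half against WT_Half and 1 in KI_Con against WT_Con, and in KI_Half against KI_Con 4 S phase and 10 mitosis members, with 32% of all genes. The replicate block was fitted only on libraries whose number occurs in every compared group. In KI_Half against KI_Con these were replicates 1, 2 and 3. Where libraries were lost, the effect of the block cannot be told apart from their loss. The block called 0 genes in WT_Full against WT_Con, 0 in WT_Half against WT_Con, 1 in KI_Con against WT_Con and 18 in the interaction. In KI_Half against KI_Con it called 7 S phase members (6 higher, 1 lower, median 0.39) and 18 mitosis members, with 36.4% of all genes, and moved Cdt1 to -0.0011. In 5 of 25 pairs a library correlated best with its own number. The Brunner gland term called 0 genes in WT_Full against WT_Con, 7 in WT_Half against WT_Con, 2 in KI_Half against WT_Half and 1 in KI_Con against WT_Con, and moved Plk1 to 0.076 in WT_Full against WT_Con. Without the Ctrb1 libraries, calls were 0 genes in WT_Full against WT_Con, 0 in WT_Half against WT_Con and 2565 in KI_Half against KI_Con, and medians in KI_Con against WT_Con were -0.51 for S phase and -0.78 for mitosis genes. It reversed Cdt1 (-0.0063), Ccnb1 (-0.099), Plk1 (0.11) and Aurkb (-0.24) in WT_Full against WT_Con, Cdt1 (-0.062), Plk1 (0.27) and Aurkb (-0.26) in WT_Half against WT_Con, and Cdt1 (-0.24) in KI_Con against WT_Con. There, Pcna was 0.0057 by DESeq2, 0.0056 with RLE size factors and 0.0049 in the fit of all libraries. Leaving out each library gave 0 to 2069 genes in WT_Full against WT_Con (S phase members 0 to 6, mitosis members 0 to 5), 21 to 446 in WT_Half against WT_Con (S phase members 0 to 1, Plk1 -0.63 to 0.026), 0 to 1 in KI_Half against WT_Half, 0 to 1 in KI_Con against WT_Con (Pcna -0.058 to 0.063, Rrm2 -0.35 to 0.075) and 0 to 2 in WT_Full against WT_Half. Of the other recomputed counts and medians 594 stayed within their limits, and of values of single genes 1107 kept their direction and side of the threshold, 20 lost the call and 8 gained it.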
